A study of Mus musculus with 8 samples.

Results

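The genes described here were Il7, which encodes interleukin 7 (IL-7), and 9 genes for chains of cytokine receptors, Il7r, Il2rg, Il4ra, Il21r, Il2ra, Il13ra1, Il10ra, Il6st and Ifngr1. They were taken by symbol from the deposited gene table and make up 10 of its 39017 genes. They were picked with the difference between the genotypes already known, so that difference is given as a description, without a test. The table held RNA-seq of induced germinal center-like B cells (iGBs), which are resting B cells of the spleen grown on 40LB feeder cells that express CD40L and BAFF. The medium held 1 ng/mL IL-4, and the B cells were separated from the feeder by elutriation at day 4. All cells came from mice labelled C57BL6/J that carried Cgamma1-cre, a Cre recombinase made once B cells are activated. The control group carried this Cre alone (4 libraries), and the Prmt5-null group also carried the floxed Prmt5 alleles, labelled PRMT5 FF (4 libraries), so that only cells in which Cre had acted lacked the gene. The labels give neither age nor sex. Each library came from an independent biological sample and is named here by its label, with PRMT5 or CTRL before the number of the sample.

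Receptors for IL-4, IL-7 and IL-21 are built from a private chain that gives ligand specificity and the common gamma chain, encoded by Il2rg. In these receptors the private chain binds the kinase JAK1 and the gamma chain binds JAK3. The kinases pass the signal to STAT proteins that enter the nucleus. The IL-2 receptor also holds the gamma chain, beside the chains encoded by Il2ra and Il2rb. IL-7 is made by stromal cells such as fibroblasts and drives early B cell development, and mature B cells largely switch its receptor off. IL-4 and IL-21 are the T cell cytokines that act on germinal center B cells.

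Library totals ran from 36731721 to 50366174 reads on genes. Prmt5 measured 1060 to 1994 normalized counts (reads divided by the size factor of the library) in Prmt5-null and 11084 to 13087 in control libraries, so the targeted gene followed the labels. The summed count of 8 B cell markers was similar in the groups (151488 to 181589). The 5 iGB markers summed to 25150 to 25664 in Prmt5-null and 18828 to 23619 in control libraries. Plasma cell, myeloid and NK or innate lymphoid sums overlapped between the groups, and their highest genes were Xbp1, Cd68 and Il1rl1. The samples were bulk RNA, in which fewer cells of a type and less RNA per cell cannot be told apart.

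Il7r, the private chain that binds IL-7, differed most among the 10 genes. Prmt5-null libraries held 99.1 (PRMT5-10617), 213 (PRMT5-10618), 141 (PRMT5-10770) and 158 (PRMT5-10771) normalized counts. Control libraries held 41.9 (CTRL-10370), 37.6 (CTRL-10596), 30.8 (CTRL-10597) and 62.5 (CTRL-10650). Every Prmt5-null library stood above every control library, and the lowest of the former was library PRMT5-10617. The mean was 153 ± 47.4 in Prmt5-null and 43.2 ± 13.6 in control libraries (SD, n = 4 each). The log2 fold change was 1.79 ± 0.27 (SE), or 3.47-fold, and it stayed between 1.62 and 1.98 when any 1 library was left out. The gene remained a low one in both genotypes, with 26 to 209 reads behind each value.

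T cells express Il7r strongly, so markers of T cells were read beside it. The summed count of 10 T cell markers was lower in the Prmt5-null libraries, 699 to 883 against 1095 to 1252. Most of that difference came from Lck, a kinase that activated B cells also make, with means of 384 and 730 normalized counts. Of the 4 markers that could be tested, Cd5 and Bcl11b had positive log2 fold changes (0.43 and 1.22), so the list did not move as a whole. Cd3e, which defines T cells, was at 0 in all 8 libraries, a count that a very low level could also give. Cd3d, Cd3g, Cd4, Cd8a and Cd8b1 lay at 11.1 normalized counts or below in every library. The part of T cell RNA in the Il7r difference was not tested.

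The Il7r gene lies at chr15:9505788-9530176 on the minus strand of GRCm38. Its upstream window is printed because it was the only member window with a match to a STAT motif, a sequence of the type that STAT proteins bind. Binding of a STAT protein there was not measured. Promoter windows came from RefSeq (GRCm38.p6), and 8 of the 10 genes matched one. Il7 and Il10ra did not. The window of 250 bases before the RefSeq start of Il7r, chr15:9529877-9530126, minus strand, is given with the match in capitals. The gene span above is that of GENCODE and reaches further upstream, to 9530176, so the window lies inside that span.

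Il7r upstream window: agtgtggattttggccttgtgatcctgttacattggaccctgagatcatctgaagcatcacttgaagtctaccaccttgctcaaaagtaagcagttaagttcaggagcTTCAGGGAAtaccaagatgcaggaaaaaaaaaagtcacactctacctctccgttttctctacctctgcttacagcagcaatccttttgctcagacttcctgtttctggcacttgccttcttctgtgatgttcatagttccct

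The motif searched for STAT5-type sites was TTCNNNGAA on both strands, and the match began 142 bases before the RefSeq start. That motif was present in 7.02% of 32851 windows of this length, and 1 of 8 member windows held it. The same motif with 4 bases in the middle, which STAT6 prefers, was present in 5.85% of windows and in 0 of the 8. The Il7r window was also poor in CpG, with 1 such pair and 44% G or C, against medians of 6 pairs and 52.4% over all windows. This was not particular to Il7r, as the windows of Il2ra and Il2rg held 3 CpG pairs each and that of Il21r held 4. The window of Il2ra had 42.4% G or C. Those of Ifngr1, Il4ra, Il13ra1 and Il6st held 11, 17, 21 and 26 pairs.

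Il7, the ligand itself, was the scarcest of the 10 RNAs. Prmt5-null libraries held 47.2 (PRMT5-10617), 29.6 (PRMT5-10618), 37.9 (PRMT5-10770) and 29.9 (PRMT5-10771) normalized counts. Control libraries held 21.4 (CTRL-10370), 16.1 (CTRL-10596), 20.1 (CTRL-10597) and 16.2 (CTRL-10650). The groups did not overlap, but the nearest pair of libraries lay only 29.6 against 21.4 apart. These values rested on 15 to 51 reads per library. The log2 fold change was 0.92 ± 0.26 (SE), or 1.89-fold, and it lay between 0.78 and 1.00 on leaving out 1 library. The threshold on the adjusted p was missed in all of these fits but the one without library PRMT5-10618.

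40LB cells are mouse fibroblasts, so any feeder RNA left after elutriation is counted in the same mouse genes. The summed count of 16 fibroblast markers was 7911 to 13524 in Prmt5-null and 5299 to 9165 in control libraries, with Col1a2 at the highest level. The groups overlapped in this sum, the ratio of their means was 1.48, and all 14 markers tested had a positive log2 fold change, of which 3 passed the test. Library PRMT5-10617, with the most fibroblast counts, also had the most Il7, and without it the log2 fold change of Il7 was 0.78. The control libraries did not follow that order. CTRL-10370, with the least fibroblast counts (5299), had the most Il7 of the controls (21.4), and CTRL-10650, with the most (9165), had 16.2. Per 10000 fibroblast marker counts, Il7 was at 30.8 to 37.4 in Prmt5-null and 17.6 to 40.4 in control libraries, so on that scale the groups overlapped. The overlap came from CTRL-10370 alone (40.4), as the other control libraries lay at 17.6 to 26.4, below all Prmt5-null ones. Per 10000 B cell marker counts it was at 1.63 to 3.04 and 0.917 to 1.29, and they did not. The part of feeder RNA in the Il7 difference was not tested.

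For Il7r the picture among the Prmt5-null libraries was another one. Library PRMT5-10617, with the most fibroblast counts, had the least Il7r of the Prmt5-null libraries, and library PRMT5-10618, with the least fibroblast counts of that genotype, had the most. The control libraries held no such order. CTRL-10650, with the most fibroblast counts of the controls (9165), had the most Il7r (62.5). CTRL-10597, next in fibroblast counts (7635), had the least (30.8). Without library PRMT5-10617 the log2 fold change of Il7r was 1.98. Per 10000 fibroblast marker counts Il7r was at 73.3 to 270 in Prmt5-null and 40.4 to 79.1 in control libraries, an overlap of library PRMT5-10617 with library CTRL-10370.

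**Figure D1:**
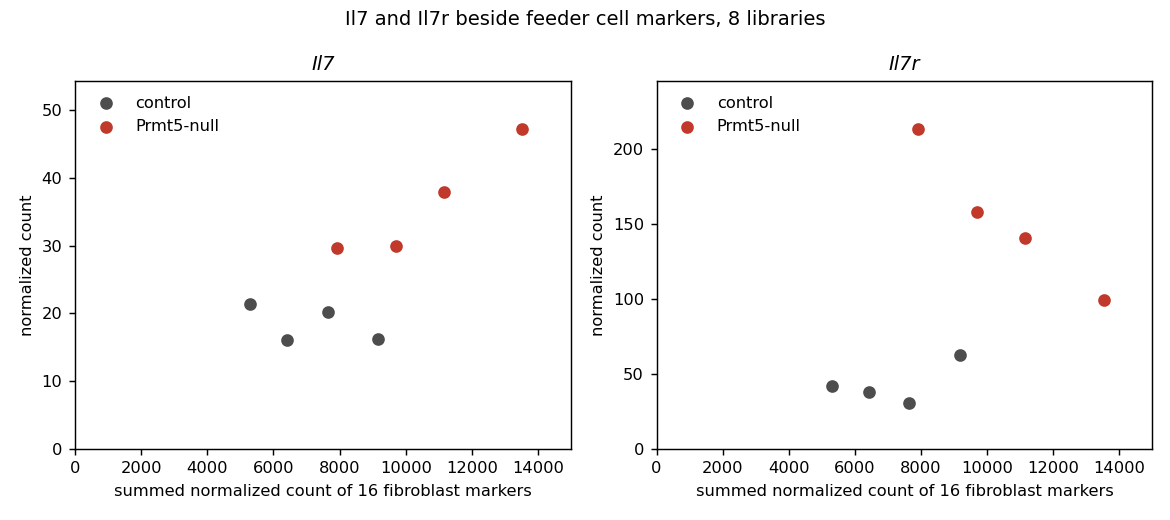
Normalized counts of Il7 (left) and Il7r (right) against the summed normalized count of 16 fibroblast markers, 1 point per library (grey control, red Prmt5-null, 4 each). Among the Prmt5-null libraries Il7 was highest, at 47.2, where the fibroblast sum was highest, at 13524, while Il7r was lowest there, at 99.1. Among the control libraries the fibroblast sum was highest, at 9165, in CTRL-10650, where Il7r was highest, at 62.5, and Il7 stood at 16.2.

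Il2rg, the gamma chain that IL-7, IL-4, IL-21 and IL-2 receptors share, moved the other way. Prmt5-null libraries held 5943 (PRMT5-10617), 6491 (PRMT5-10618), 4725 (PRMT5-10770) and 5929 (PRMT5-10771) normalized counts. Control libraries held 7396 (CTRL-10370), 7886 (CTRL-10596), 6603 (CTRL-10597) and 7700 (CTRL-10650). The groups did not overlap, and the nearest libraries of the groups were PRMT5-10618 and CTRL-10597. The log2 fold change was -0.36 ± 0.10 (SE), which is 1.29-fold lower and below the 1.5-fold used for a call. Per 100 normalized counts of Il2rg there were 1.67 to 3.29 of Il7r in Prmt5-null and 0.467 to 0.811 in control libraries. The gamma chain RNA thus stayed far in excess over the IL-7 chain in both genotypes.

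The structure of the Il2rg RNA differed as well. In the authors' splicing lists, which gave 4 values per genotype without naming the libraries, exon 6 of the 8 exons of its main annotated transcript was an event of skipping. The exon lies at chrX:101265630-101265726 on the minus strand of GRCm38 and encodes the segment that spans the membrane. Its inclusion level, the share of RNA that keeps it, was 0.835, 0.876, 0.853 and 0.859 in control and 0.651, 0.574, 0.573 and 0.548 in Prmt5-null samples. The 2 sets did not overlap, and their medians were 0.856 and 0.574. Reads that skip the exon numbered 46 to 80 per control sample and 115 to 146 per Prmt5-null sample, against 498 to 830 and 275 to 399 reads that include it. The lists are headed 1 and 2 only, and were read as control and Prmt5-null from the study's legend and from the deleted Prmt5 exon, whose level was 0.989 to 1 in the first and 0.027 to 0.304 in the second. The events deposited had been selected for a difference between genotypes, so these values are a description.

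Both forms are printed so that the change in reading frame can be seen. The first line gives exon 6 in capitals between 12 bases of exon 5 and 12 of exon 7. The second joins the same end of exon 5 to exon 7, with the first stop codon in frame in capitals, and both come from the GENCODE transcript on GRCm38.

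Il2rg with exon 6: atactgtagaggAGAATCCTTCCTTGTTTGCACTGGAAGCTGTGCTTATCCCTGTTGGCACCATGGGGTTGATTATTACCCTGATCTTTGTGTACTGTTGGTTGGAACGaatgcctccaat
Il2rg without exon 6: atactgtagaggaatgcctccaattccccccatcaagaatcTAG

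The exon is 97 bases long, which is not a multiple of 3. Translated from the annotated start, the form without it met a stop after 263 codons, where the annotated frame ran for 369. That stop, at chrX:101265411-101265413, lay 38 bases before the last exon junction. The annotation holds a transcript without this exon. A gamma chain without its membrane segment is known from T cells as a secreted protein. Protein was not measured here.

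A further Il2rg event, listed as mutually exclusive exons, placed exons 4 and 5 as alternatives between exons 3 and 7. Since it shares the join of exon 5 to exon 7 with the form above, it is not independent of it. Its levels from junction reads were 0.895 to 0.916 in control and 0.748 to 0.809 in Prmt5-null samples. With the reads on the exons themselves added, the levels lay closer, at 0.692 to 0.716 and 0.627 to 0.678.

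Il21r, the private chain for IL-21, had the only other event among these genes. Its exon 4 at chr7:125626883-125627082, of 200 bases, had inclusion levels of 0.994 to 1 in control and 0.985 to 0.996 in Prmt5-null samples when exon reads were counted. From junction reads alone they were 0.846 to 1 and 0.5 to 0.882. Skipping rested on 1 read in all control samples together and 9 in the Prmt5-null ones, too few to give a level. In all, 2 of the 9 genes with a mean above 50 had a deposited event, against 11.4% of 13300 such genes.

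**Figure D2:**
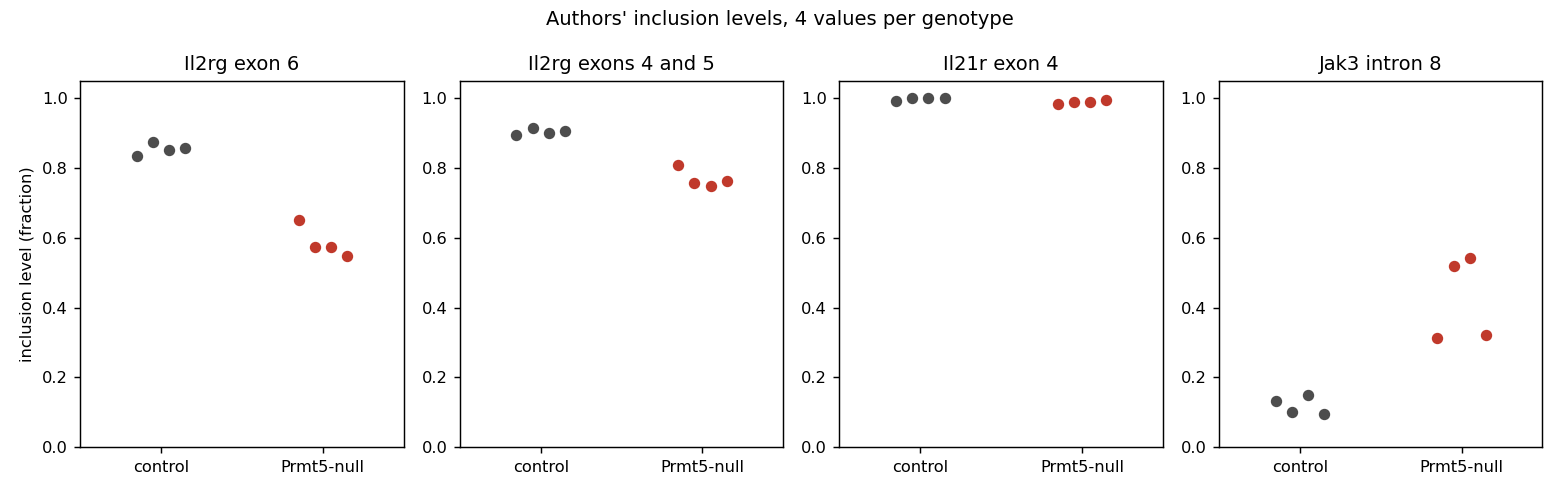
Inclusion levels (fraction of RNA, 0 to 1) as the authors deposited them for Il2rg exon 6, the Il2rg event of exons 4 and 5, Il21r exon 4 and the intron of Jak3 after exon 8, with 4 values per genotype (grey control, red Prmt5-null). The event of exons 4 and 5 is drawn from junction reads alone, while the other panels also count reads on the exon or intron itself. The levels of Il2rg exon 6 lay at 0.835 to 0.876 in control and 0.548 to 0.651 in Prmt5-null samples, while those of Il21r exon 4 all lay at 0.985 or above.

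Among the other private chains that pair with the gamma chain, Il4ra and Il21r had small log2 fold changes. Il4ra, which binds IL-4 and with it the cytokine in the medium, had 23969 to 34923 normalized counts in Prmt5-null and 24251 to 32709 in control libraries. Its log2 fold change was 0.07 ± 0.12 (SE), and the highest and the lowest of the 8 libraries were both Prmt5-null. Il21r had 14054 to 15347 in Prmt5-null and 12189 to 14532 in control libraries, with a log2 fold change of 0.13 ± 0.08 (SE). The ranges of each gene overlapped. Set against the lower Il2rg, however, Il21r stood at 230 to 325 per 100 counts of Il2rg in Prmt5-null and 158 to 208 in control libraries, which did not overlap. Il2rg per 100 counts of Il4ra stood at 16.6 to 24.7 in Prmt5-null and 20.2 to 30.5 in control libraries, which overlapped.

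Il2ra, the chain that raises the affinity of the IL-2 receptor and marks activated lymphocytes, had 1 control library apart from the others. Prmt5-null libraries held 552 (PRMT5-10617), 414 (PRMT5-10618), 368 (PRMT5-10770) and 537 (PRMT5-10771) normalized counts. Control libraries held 248 (CTRL-10370), 244 (CTRL-10596), 289 (CTRL-10597) and 464 (CTRL-10650). Library CTRL-10650 fell among the Prmt5-null values, and the other 3 control libraries lay below all of them. The log2 fold change was 0.62 ± 0.21 (SE), or 1.53-fold, and 0.83 without library CTRL-10650. It passed both thresholds in 3 of 17 alternatives, without that library, without PRMT5-10770 and in DESeq2.

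Il13ra1, which pairs with the IL-4 chain outside the gamma chain system, had 116 to 206 normalized counts in Prmt5-null and 132 to 253 in control libraries. The ranges overlapped, and the log2 fold change of -0.15 ± 0.24 (SE) turned to 0.02 without control library CTRL-10370.

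Il10ra binds IL-10, through a receptor of the family to which the interferon receptors also belong. Prmt5-null libraries held 1819 (PRMT5-10617), 2409 (PRMT5-10618), 2136 (PRMT5-10770) and 2593 (PRMT5-10771) normalized counts. Control libraries held 1631 (CTRL-10370), 1635 (CTRL-10596), 1221 (CTRL-10597) and 1437 (CTRL-10650). The groups did not overlap, with library PRMT5-10617 nearest to the control values. The log2 fold change was 0.59 ± 0.13 (SE), or 1.51-fold, just past the 1.5-fold threshold. It fell below it without library PRMT5-10618 (0.55), PRMT5-10771 (0.52), CTRL-10650 (0.58) or CTRL-10597 (0.50). Il10, the ligand, had a mean too low to be tested, and is named after its values were seen. In the same order of libraries, it measured 1.85, 9.19, 1.08 and 1.87 normalized counts in Prmt5-null and 21.4, 21.5, 10.7 and 9.69 in control libraries. These values rest on 1 to 9 reads per Prmt5-null and 9 to 24 per control library, too few to read a difference from. Per 10000 fibroblast marker counts, Il10ra stood at 1345 to 3046 in Prmt5-null and 1568 to 3077 in control libraries, which overlapped, while per 10000 B cell marker counts it stood at 117 to 163 and 74.8 to 98.0, which did not.

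Ifngr1, the chain that binds interferon gamma, had 2871 to 3515 normalized counts in Prmt5-null and 2573 to 3378 in control libraries (log2 fold change 0.15 ± 0.10, SE). Il6st encodes gp130, the signal transducer that receptors for IL-6 and its relatives share. It had 1761 to 2355 in Prmt5-null and 1683 to 2410 in control libraries, with a log2 fold change of -0.01 ± 0.13 (SE). Neither gene separated the genotypes, and the direction for Il6st depended on which library was left out (-0.11 to 0.07).

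**Figure D3:**
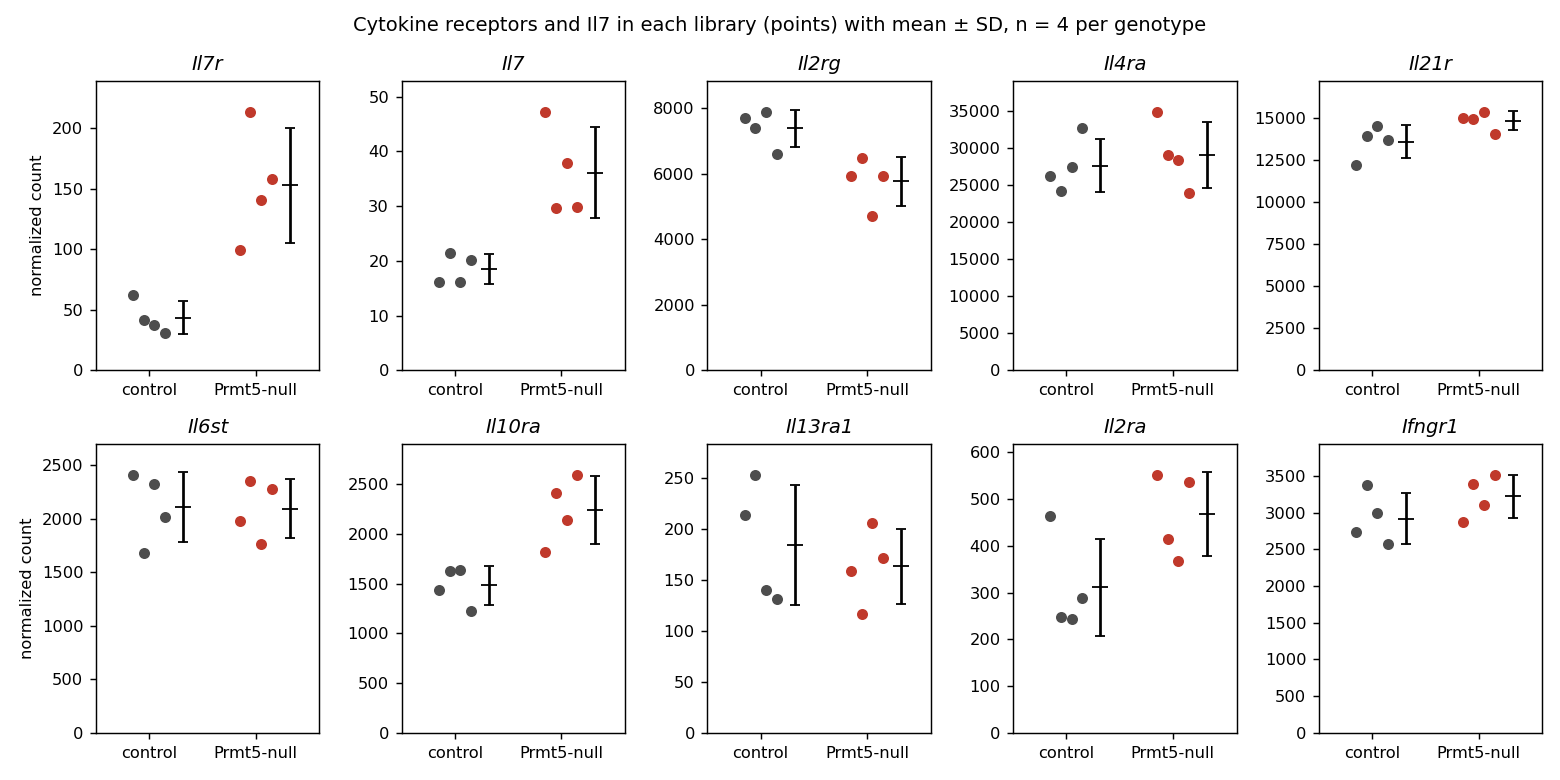
Normalized counts of the 10 genes in each library (points, grey control and red Prmt5-null) on axes that start at 0, with mean ± SD beside them (n = 4 per genotype). The points of the genotypes do not overlap for Il7r, Il7, Il2rg and Il10ra.

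Of the 10 genes, 7 had a positive and 3 a negative log2 fold change, with a median of 0.14. As a description and not a test, 3 of them, Il7r, Il7 and Il10ra, lay past the thresholds used for a call (an adjusted p below 0.05 in limma and 1.5-fold), on the higher side in Prmt5-null. Of 16250 genes tested, 6.48% were called, 3.49% as higher and 2.99% as lower. The groups did not overlap for 4 of the 10 genes and for 19.8% of all genes tested. Nothing is read from these shares, because the genes were picked on the same contrast. At the edge of the thresholds, Il10ra was inside at 1.51-fold, Il2ra was outside for its adjusted p at 1.53-fold, and Il2rg was outside for its 1.29-fold size.

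**Figure D4:**
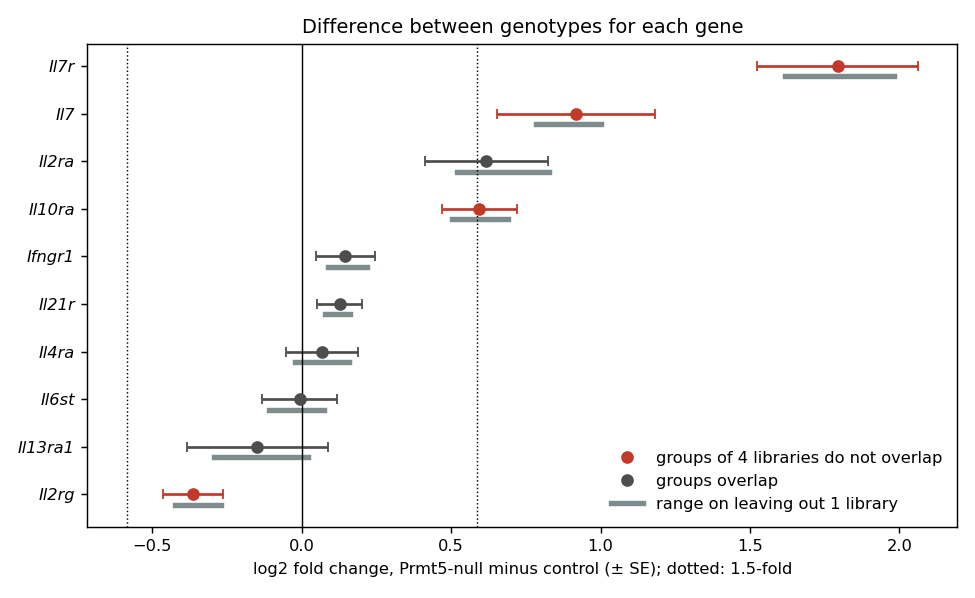
Log2 fold change of each gene, Prmt5-null minus control, with its SE (bars), and the range on leaving out each of the 8 libraries in turn (grey line). Red points mark genes whose groups of 4 libraries do not overlap, and the dotted lines mark 1.5-fold. Il7r stands at 1.79 and Il2rg at -0.36.

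Levels were compared between genes as normalized counts per kilobase of exons. In control libraries the order was Il4ra at 4611 ± 602 (SD, n = 4), Il21r at 4089 ± 300, Il2rg at 3099 ± 237, Ifngr1 at 1025 ± 123, Il10ra at 423 ± 56.2 and Il6st at 190 ± 29.7. Far below came Il2ra at 54.5 ± 18.2, Il13ra1 at 49.7 ± 15.8, Il7r at 9.27 ± 2.92 and Il7 at 3.26 ± 0.48. The values of Il4ra overlapped those of Il21r, and those of Il2ra overlapped those of Il13ra1, while the other neighbours were apart. Prmt5-null libraries had the same order, with Il7r at 32.8 ± 10.2 per kilobase, where it overlapped Il13ra1 at 31.4 to 55.4. The IL-4 chain stood 498 times above the IL-7 chain per kilobase in control and 148 times above it in Prmt5-null libraries.

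Over the 8 libraries, the genes with a mean above 50 whose log2 values ran most closely with Il7r were Itm2b (Pearson r 0.99), Gm11189 (0.99), Lrrfip2 (0.98), Zfp456 (0.98) and Eda2r (0.97). For Il7 they were Tm7sf3 (0.99), Prnp (0.98), Pisd (0.98), Gss (0.98) and Mycl (0.98). All 10 of these genes had a positive log2 fold change, and the largest was that of Eda2r, a receptor of the TNF family that p53 induces, at 1.35. These were the closest genes of the whole table over 8 points that fall into 2 genotypes, so the r values describe the pattern only. Between members, Il7r ran with Il10ra at r = 0.90 and with Il7 at 0.70.

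The kinases and STATs that these receptors use were mostly not called, and the one that was is the partner of the gamma chain. Of 11 such genes tested, 1 was called, Jak3, with a list median of -0.02 beside 0.00 over all genes. Jak3 fell from 2620 ± 164 to 1309 ± 311 normalized counts (log2 fold change -1.03 ± 0.14 SE, adjusted p 0.000769, limma), and it was called without any 1 library as well. Its Prmt5-null libraries held 1430 (PRMT5-10617), 1684 (PRMT5-10618), 981 (PRMT5-10770) and 1142 (PRMT5-10771), all below the control values of 2408 to 2806. Tyk2, another Janus kinase, was lower by less than 1.5-fold (log2 fold change -0.48, adjusted p 0.00663, limma). Jak1, which the private chains bind, gave 0.07 (adjusted p 0.589), Stat5a 0.10 (0.596), Stat5b 0.19 (0.0708) and Stat6, the IL-4 STAT, -0.07 (0.602).

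Jak3 was also listed by the authors for a retained intron, the one after exon 8 at chr8:71680798-71680882 on the plus strand. Its inclusion level was 0.131, 0.1, 0.149 and 0.094 in control and 0.313, 0.519, 0.543 and 0.322 in Prmt5-null samples, with no overlap. Reads of the spliced form numbered 63 to 102 per control and 9 to 39 per Prmt5-null sample. The intron is printed from an annotated Jak3 transcript that keeps it, with 12 bases of exon on each side. Capitals mark its first 2 bases and its last 3, which form a stop codon in frame.

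Jak3 intron after exon 8: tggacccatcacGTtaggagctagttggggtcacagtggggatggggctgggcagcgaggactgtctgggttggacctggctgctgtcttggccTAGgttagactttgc

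The intron is 85 bases long, and a form that keeps it would read 405 codons from the start of the main transcript, against 1100 in the annotated frame. Il2rg and Jak3, the receptor chain and the kinase that binds it, thus both had less RNA on exons and a larger share in a form with a shorter frame. Whether the forms and the levels are linked was not tested.

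The other genes of the pathway were read from 5 further lists. Over all 114 pathway genes, 79 were tested and 8 were called (10.1%, beside 6.48% of all genes), 5 as higher and 3 as lower, with a median of 0.01. A splicing event was deposited for 15 of the pathway genes, with 19 events in all, while 11.4% of all genes with a mean above 50 had one. The pathway lists also hold genes below that mean, so the count and the share are not of like sets. The genotypes did not overlap in 10 of the 19 events. Of the 9 events of exon skipping, 6 had a lower and 3 a higher inclusion level in Prmt5-null samples. Deposited events had been selected for a difference between genotypes, and the same shares over all of them were not computed, so nothing is read from these counts. Il12rb1 was among the lower ones, at 0.673 to 0.849 in control and 0.466 to 0.597 in Prmt5-null samples. Fcer2a, the low-affinity IgE receptor that IL-4 induces, was among the higher ones, at 0.778 to 0.863 and 0.926 to 0.970.

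Of 34 other receptor chains, 22 were tested and 2 were called by limma, both lower, with a median of -0.09. edgeR called 3 and DESeq2 4, and the added ones, Prlr and Il11ra1, had higher means in Prmt5-null libraries (limma log2 fold changes 0.77 and 0.80, adjusted p 0.0733 and 0.0768). Il2rb, the beta chain of the IL-2 and IL-15 receptors, fell from 120 ± 56.3 to 42.8 ± 17.4 normalized counts (log2 fold change -1.42 ± 0.38 SE, adjusted p 0.0278, limma). Its groups overlapped, and the call was lost without library PRMT5-10617, PRMT5-10618, CTRL-10650 or CTRL-10370 (adjusted p 0.0502 to 0.0822, limma). Il12rb1, a chain of the IL-12 receptor, fell from 814 ± 52.2 to 509 ± 54.4 (log2 fold change -0.68 ± 0.10 SE, adjusted p 0.0015, limma), in every fit without 1 library. Of the 3 chains of the IL-2 receptor, Il2rb and Il2rg thus had the lower mean and Il2ra the higher mean in Prmt5-null libraries.

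Of 29 other ligands only 8 were tested, and 3 were called, all higher, with a median of 0.75. The filter on the mean left out 21 ligands, so direction and median describe the tested ones only. Il10 was among those left out, with means of 15.8 in control and 3.50 in Prmt5-null libraries, on few reads. Il15, which signals through Il2rb and the gamma chain, rose from 40.1 ± 5.37 to 78.9 ± 6.22 normalized counts (log2 fold change 0.97 ± 0.19 SE, adjusted p 0.00637, limma). Il12a, a subunit of IL-12 and IL-35, rose from 258 ± 45.3 to 473 ± 74.1 (log2 fold change 0.87 ± 0.16 SE, adjusted p 0.00358, limma). Lif, which signals through gp130, rose from 16.6 ± 7.06 to 38.1 ± 8.54 (log2 fold change 1.24 ± 0.36 SE, adjusted p 0.0396, limma). The call of Lif was kept in 1 of the 8 fits without 1 library, the one without control library CTRL-10596 (adjusted p 0.0514 to 0.12 in the other 7, limma). Per 10000 fibroblast marker counts the groups overlapped for all 3 ligands, as for Il7, and the part of feeder RNA was not tested.

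Of 16 feedback inhibitors, 1 was called, with a median of 0.09. Socs5, an inhibitor of the IL-4 receptor, rose from 84.2 ± 16.1 to 142 ± 34.9 normalized counts (log2 fold change 0.74 ± 0.21 SE, adjusted p 0.0385, limma). The call held only without library PRMT5-10618 or CTRL-10650, and the adjusted p was 0.0556 to 0.12 without each of the other 6. Of 9 targets of IL-4 and gamma chain signals, 0 were called by limma, edgeR or DESeq2, with 5, 4 and 5 at an unadjusted p below 0.05. The list had 5 positive and 4 negative log2 fold changes, with a median of 0.18. Its 2 members with an adjusted p below 0.05, Il4i1 and Pim3, were lower by less than 1.5-fold (log2 fold changes -0.32 and -0.38, adjusted p 0.0248 and 0.013, limma).

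Of 15 regulators of Il7r and targets of Foxo1, the factor that turns Il7r on in lymphocytes, 13 were tested, with a median of -0.01.

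**Figure D5:**
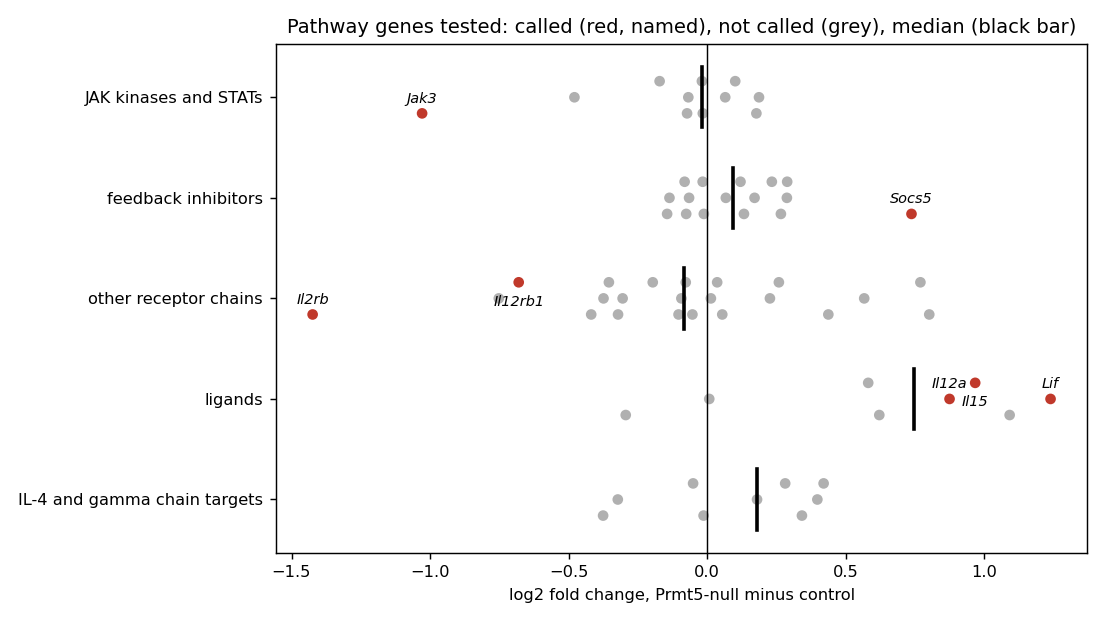
Log2 fold change, Prmt5-null minus control, of the pathway genes tested, in 5 of the lists, with 1 point per gene (red and named where called by limma, grey where not) and the median of each list as a black bar. Jak3, Il2rb and Il12rb1 lie on the lower side at -1.03, -1.42 and -0.68, and the 8 ligands tested, of 29, have the highest median, 0.75.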

How the data were processed

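RNA was sequenced from 8 iGB libraries, 4 Prmt5-null and 4 control, with stranded, ribosome-depleted libraries. The authors trimmed reads with Trimmomatic 0.32, aligned them with STAR 2.3.0e to mm10 (GRCm38) and used featureCounts 1.4.4 to count unique reads per Ensembl gene over its exons. They deposited a normalized signal, the count divided by the DESeq2 size factor of the library. The strand setting of the counting is not stated, so reads of overlapping and antisense genes cannot be told apart. For splicing the authors ran rMATS and deposited inclusion levels as fractions, reads behind them, and p-values and FDR values that compare the genotypes, which were not used here.

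All deposited values were whole multiples of the worth of 1 read (100% within 0.01), which gave the totals of 36731721 to 50366174 reads. Of 39017 genes, 12321 were at 0 throughout, and the 16250 whose mean reached 10 were tested. Genotypes were compared with limma 3.58.1 (two-sided, eBayes with a trend, R 4.3.3) on log2(normalized count + 1), a scale that understates changes of low genes, with Benjamini-Hochberg adjustment over all genes tested. A call needed an adjusted p below 0.05 and 1.5-fold. edgeR 4.0.16 and DESeq2 1.42.0 on the recovered reads, other pseudocounts, filters and normalizations, and leaving out each library were the alternatives. The fits were tested on simulated data.

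Members and lists were chosen with earlier results of these data known. Named are the 10 members, the called genes of each pathway list (at most 8), Jak1, Jak3, Stat5a, Stat5b and Stat6, the 5 genes closest to Il7r and to Il7, and the highest gene of each marker list. Some genes that this rule names are not reported here. Other genes named, with Il10, Tyk2, Il4i1, Pim3 and single T cell markers among them, were chosen after their values were seen. All 182 symbols in the lists matched by Ensembl ID. Exon coordinates and lengths came from GENCODE M21, and tables were made in Python 3.11.15 with pandas 2.3.3.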

Additional observations from a re-analysis of the deposited data

How the results depend on the processing

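All 149 values of a member's log2 fold change under the alternatives lay within 1 SD between libraries of the value given. Leaving out 1 of 4 libraries cannot move a group mean that far, so for those fits the outcome was fixed in advance and nothing is read from it. The thresholds that describe the members held for Il7r under all 17 alternatives, for Il10ra under 13 of 17 and for Il7 under 6 of 16, which is no evidence for them, since they were picked on this contrast. The number of members called, 3, ranged from 1 to 3 on leaving out 1 library, with 1 without library PRMT5-10771 and without library CTRL-10597. Of the pathway genes 8 were called, and without a variance trend or with an adjusted p below 0.01 there were 4 each. Leaving out 1 library gave 5 to 9, with 5 without library PRMT5-10617, PRMT5-10771 or CTRL-10370. Of these the genes called higher, 5, became 3 without a filter on low values, 2 without a trend, 2 with an adjusted p below 0.01, and 2 to 5 on leaving out 1 library, with 2 without library PRMT5-10771. The labels do not say which library belonged to which of the 2 experiments, and experiment as a block, in each of 18 placements, gave 3 to 8 genes called higher and kept Il7 past the thresholds in 7 of the 18. No paired analysis was possible because the genotypes share no replicate numbers. Genes with few reads, Il7 above all at 15 to 51 per library, limit what depth can show here. Ordered without division by length, Il6st and Il10ra change places.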
